A study of Mus musculus with 9 samples.

Results

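The genes described here encode the chains of the collagens, and they were chosen by name: every entry of the count table whose symbol is Col, a number, the letter a and a second number. The rule found 44 genes among 54134, and all 44 were present in the GENCODE M21 annotation of GRCm38. Messenger RNA was measured in mouse cells labelled HT22 in the sample titles, a hippocampal neuronal line, and labelled HT-4 under cell type, all of wild-type (WT) genotype. The 3 libraries of the Hb+NTR1 group, which the titles call ganyu, came from cells given oxyhemoglobin and NTR1. The 3 libraries of the Hb group came from cells given oxyhemoglobin, the oxygen-carrying blood pigment, and the 3 Control libraries from cells given nothing. The series title, which concerns neuronal death after subarachnoid bleeding, writes NGR1 where the treatment notes write NTR1. No group received that agent without oxyhemoglobin, and neither doses nor times appear in the labels.

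Collagens are secreted proteins in which 3 chains wind into a triple helix, and each chain of the helix carries glycine at every 3rd residue. Fibrillar collagens such as type I and type III form the ropes of connective tissue, type IV forms the sheet of basement membranes, type VI forms beaded filaments around cells, and types VIII and X form open networks. The remaining types include chains that sit on fibrils (FACITs), anchoring fibrils, membrane-spanning collagens and the multiplexins of vessel and epithelial basement membranes. In brain, collagens are known mainly from the meninges and the walls of blood vessels, and neurons themselves are not a usual source of type I collagen.

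Total counts per library were 13945507 to 14280053 in Hb+NTR1, 13415648 to 14728662 in Hb and 14369813 to 16893746 in Control. A gene with 0 counts could have had up to 3 counts, which is 0.178 to 0.224 CPM (the usual depth-scaled count, relative to the library total), for counting error only. Mitochondrially encoded genes took 6.19 to 6.65% of counts in Hb+NTR1, 4.14 to 4.57% in Hb and 4.73 to 5.20% in Control. Hb replicate 2 stood apart: chi-square divided by its degrees of freedom was 12.1 and 10.1 for its pairs with the other Hb libraries, and 2.47 to 4.83 for the other pairs within a group. Of 15 neuronal markers, 3 (Tubb3, Dlg4 and Ncam1) reached 1 CPM in at least 3 libraries, and Map2, Snap25 and Gad1 had 0 counts everywhere. The summed level of the 15 was 108 to 111 normalised CPM in Hb+NTR1, 162 to 177 in Hb and 169 to 178 in Control. Tubb3 had 4.93 to 5.76, 32.3 to 41.3 and 31.6 to 34.3 in these groups. Dlg4 had 31.9 to 32.4, 68.3 to 72.9 and 66.2 to 72.6. Ncam1 did not fall, with 69.3 to 70.9, 58.1 to 66.9 and 64.1 to 71.0. Of 9 fibroblast markers, 7 reached that limit, and all 7 were lower in Hb+NTR1 than in both other groups by edgeR's quasi-likelihood test. Of all genes tested, 31.6% were lower relative to Hb and 32.2% relative to Control. Lum and Fap had 7 and 1 counts over all libraries together. The fibroblast markers summed to 1495 to 1583 normalised CPM in Hb+NTR1, 2678 to 3142 in Hb and 3171 to 3301 in Control. Most of this was Vim, with 1389 to 1476, 2413 to 2894 and 2856 to 2948. Astrocyte markers summed to 8.63 to 10.0 in Hb+NTR1, 115 to 138 in Hb and 199.6 to 229 in Control, with 1 of 6 (Slc1a3) at that limit and Aqp4 at 0 counts everywhere. Smooth muscle and pericyte markers, with 1 of 4 (Cspg4) at the limit, summed to 111 to 124, 154 to 214 and 189.6 to 196 in Hb+NTR1, Hb and Control. Chondrocyte markers, with 1 of 4 (Sox9) at the limit, summed to 52.6 to 69.3, 87.5 to 88.2 and 78.3 to 82.8 in the same groups. The part of cell composition in the collagen results was not tested, and in bulk RNA fewer cells of a type cannot be told apart from less RNA per cell.

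Of the 44 collagen chain genes, 24 reached 1 CPM in at least 3 libraries: 8 of 11 fibrillar genes, 4 of 6 type IV genes, 3 of 6 type VI genes, 1 of 3 network genes and 8 of 18 others. In 21 of them the limit was passed in all 9 libraries. Col23a1 passed it only through the Hb+NTR1 libraries, and Col17a1 and Col9a1 only through Hb and Control libraries. Of the 20 genes under the limit, Col28a1 and Col4a3 still had enough counts to be tested. Col28a1 had them through Control libraries, and Col4a3 through Hb and Control libraries. The other 18 did not pass the filter for the test and had 1 to 76 counts over all libraries together. Among them were Col2a1, the cartilage fibrillar chain, with 76 counts and at most 1.00 CPM, Col12a1 with 75 counts and at most 1.43 CPM, Col4a4 with 64 counts and at most 1.02 CPM, and Col14a1 with 31 counts and at most 1.00 CPM. The remaining 14 stayed under 1 CPM in every library: Col6a4, Col6a5 and Col6a6 of type VI, Col8a2 and Col10a1 of the network class, the fibrillar Col11a1 and Col24a1, and Col9a2, Col13a1, Col15a1, Col19a1, Col22a1, Col25a1 and Col26a1. In an edgeR fit with no filter on low counts, 1 of the 18 passed the threshold in 1 comparison: Col14a1, a FACIT, was higher in Hb+NTR1 than in Hb (adjusted p = 0.0209), on 3, 14 and 6 counts in the Hb+NTR1 libraries against 2, 1 and 0 in the Hb libraries. It missed the threshold against Control (adjusted p = 0.0532), where the libraries had 4, 1 and 0 counts and overlapped with Hb+NTR1.

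The repeat that names the family is written in its exons. Of the internal coding exons of fibrillar genes, 83.9% had a length that is a multiple of 9 bases, 1 glycine triplet, and 48.6% were exactly 54 bases long. The share of multiples of 9 was 56.5% in the other class, 54.4% in type VI and 47.2% in type IV, against 14.3% over 159491 internal coding exons of all 22604 coding genes, of which 0.732% had 54 bases. The network genes have no internal coding exon. The first 54-base exon with a glycine codon at every 3rd codon is printed for Col1a1, Col1a2, Col3a1 and Col5a2, abundant fibrillar genes that the results below turn on. The sequences are from the GRCm38 genome, and capitals mark the glycine codon that opens each triplet of codons.

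Col1a1 exon, chr11:94939904-94939957, plus strand: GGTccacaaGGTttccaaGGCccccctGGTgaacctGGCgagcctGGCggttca
Col1a2 exon, chr6:4515481-4515534, plus strand: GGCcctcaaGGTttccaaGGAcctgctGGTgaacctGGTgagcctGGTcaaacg
Col3a1 exon, chr1:45325360-45325413, plus strand: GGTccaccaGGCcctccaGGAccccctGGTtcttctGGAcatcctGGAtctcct
Col5a2 exon, chr1:45434892-45434945, minus strand: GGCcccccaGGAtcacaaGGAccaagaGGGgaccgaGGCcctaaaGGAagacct

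Each of these 4 exons holds 6 triplets of codons that open with glycine. The 4 transcripts are not confused by short reads, since stretches of 50 bases were not shared between any measured collagen gene and another collagen gene. Col3a1 shared 0.927% of its stretches with Gm47302, an annotated miRNA that lies within its exons.

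Collagen messages were far scarcer in Hb+NTR1 cells than in the other groups. The 44 genes took 0.307%, 0.306% and 0.296% of all counts in the Hb+NTR1 libraries, against 1.66%, 1.44% and 1.56% in the Hb libraries and 1.87%, 1.75% and 1.85% in the Control libraries. No library of 1 group overlapped with another group. The group means were 0.303% ± 0.00577 in Hb+NTR1, 1.56% ± 0.108 in Hb and 1.82% ± 0.0645 in Control (SD, n = 3 each), so the share was 5.13-fold lower in Hb+NTR1 than in Hb and 6.01-fold lower than in Control. Both type I chains together made up 38.7 to 40.9% of collagen counts in Hb+NTR1, 63.8 to 64.9% in Hb and 68.0 to 68.4% in Control. Without these chains the shares of all counts were 0.182% ± 0.000995 in Hb+NTR1, 0.556% ± 0.0335 in Hb and 0.579% ± 0.0210 in Control (SD, n = 3 each).

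The classes did not shrink alike. Fibrillar genes summed to 1748 ± 42.8 normalised CPM (CPM on the library size scaled by TMM) in Hb+NTR1, 12947 ± 778 in Hb and 15687 ± 526 in Control, so that the sum was 7.41-fold lower in Hb+NTR1 than in Hb. The type VI sum was 307 ± 6.73 in Hb+NTR1, 1235 ± 102 in Hb and 1400.1 ± 62.3 in Control, 4.02-fold lower in Hb+NTR1 than in Hb. For type IV the sums were 717 ± 14.4, 1000.5 ± 82.7 and 1172 ± 21.9 normalised CPM in Hb+NTR1, Hb and Control, and the first was 1.39-fold lower than the second. The network class, almost all of it Col8a1, summed to 32.5 ± 2.67 in Hb+NTR1, 66.1 ± 3.45 in Hb and 86.2 ± 1.24 in Control, and the other class to 169 ± 4.0, 275 ± 9.37 and 315 ± 16.9 (SD, n = 3 each). The makeup of the collagen counts therefore differed: fibrillar genes held 58.8% ± 0.939 of them in Hb+NTR1, against 83.4% ± 0.337 in Hb and 84.1% ± 0.402 in Control. Type IV held 24.1% ± 0.691 in Hb+NTR1, against 6.44% ± 0.166 in Hb and 6.29% ± 0.215 in Control. Type VI held 10.3% ± 0.255, 7.95% ± 0.229 and 7.50% ± 0.232, the other class 5.68% ± 0.128, 1.77% ± 0.0663 and 1.69% ± 0.0424, and the network class 1.09% ± 0.0992, 0.427% ± 0.0250 and 0.462% ± 0.0210 in Hb+NTR1, Hb and Control (SD, n = 3 each). These sums weigh long and abundant genes most and were given no test.

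**Figure D1:**
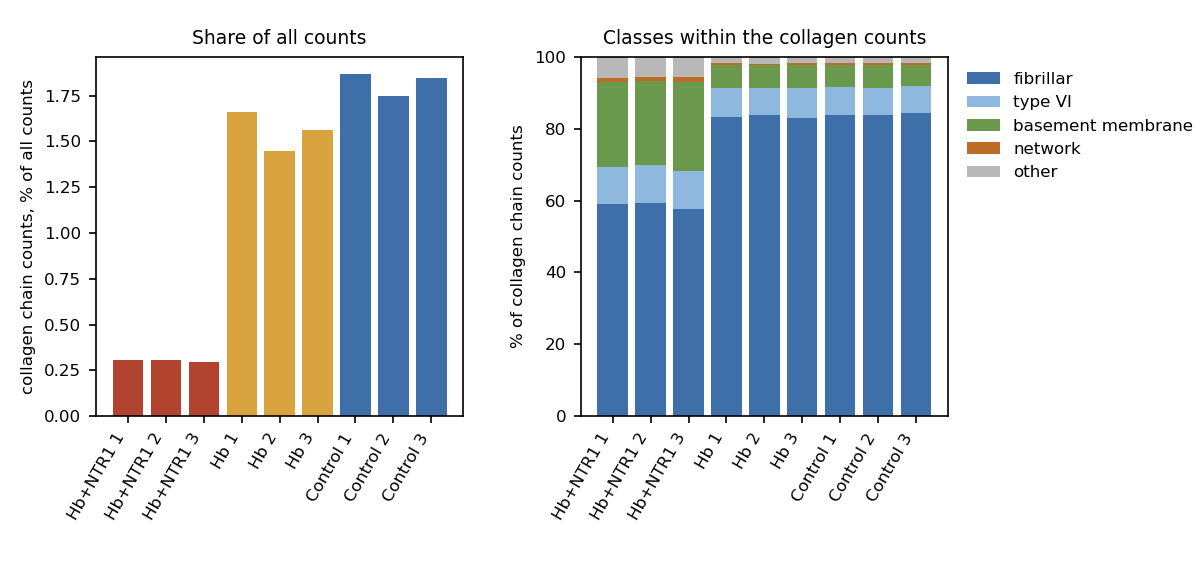
Left, the collagen chain genes' percentage of all counts in each library. Right, how the collagen counts of each library divided among the 5 classes, in percent. The 3 Hb+NTR1 libraries lie at 0.296 to 0.307% of all counts, and type IV fills 23.6 to 24.9% of their collagen counts, against 6.07 to 6.57% in the other 6 libraries.

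Of the 26 tested genes, 5 were higher and 16 lower in Hb+NTR1 than in Hb at an adjusted p under 0.05 (edgeR's quasi-likelihood test, Benjamini-Hochberg over 13810 genes). Of all genes tested 62.3% were called in this comparison, 30.7% higher and 31.6% lower, so calls were common throughout. The median log2 fold change of the tested collagen genes was -1.09, that of all genes -0.01. In 19 of the 26 the libraries of both groups did not overlap, against 64.7% of all genes. Against Control, 7 were higher and 18 lower in Hb+NTR1, where 63.6% of all genes were called, 31.4% higher and 32.2% lower. The median was -1.49, against -0.0042 over all genes, and 24 of 26 did not overlap, against 69.9% of all genes. Both comparisons use the same Hb+NTR1 libraries, so they are not independent of each other. In Hb against Control 3 genes were higher and 9 lower, with 3.65% of all genes called, 1.88% higher and 1.77% lower. The median was -0.20, against 0 over all genes, and 15 of 26 did not overlap, against 19.6% of all genes. Its libraries also enter the other comparisons. Nothing in the labels says whether replicates were separate cultures, so each p-value reflects only the spread between these libraries, which may be technical.

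**Figure D2:**
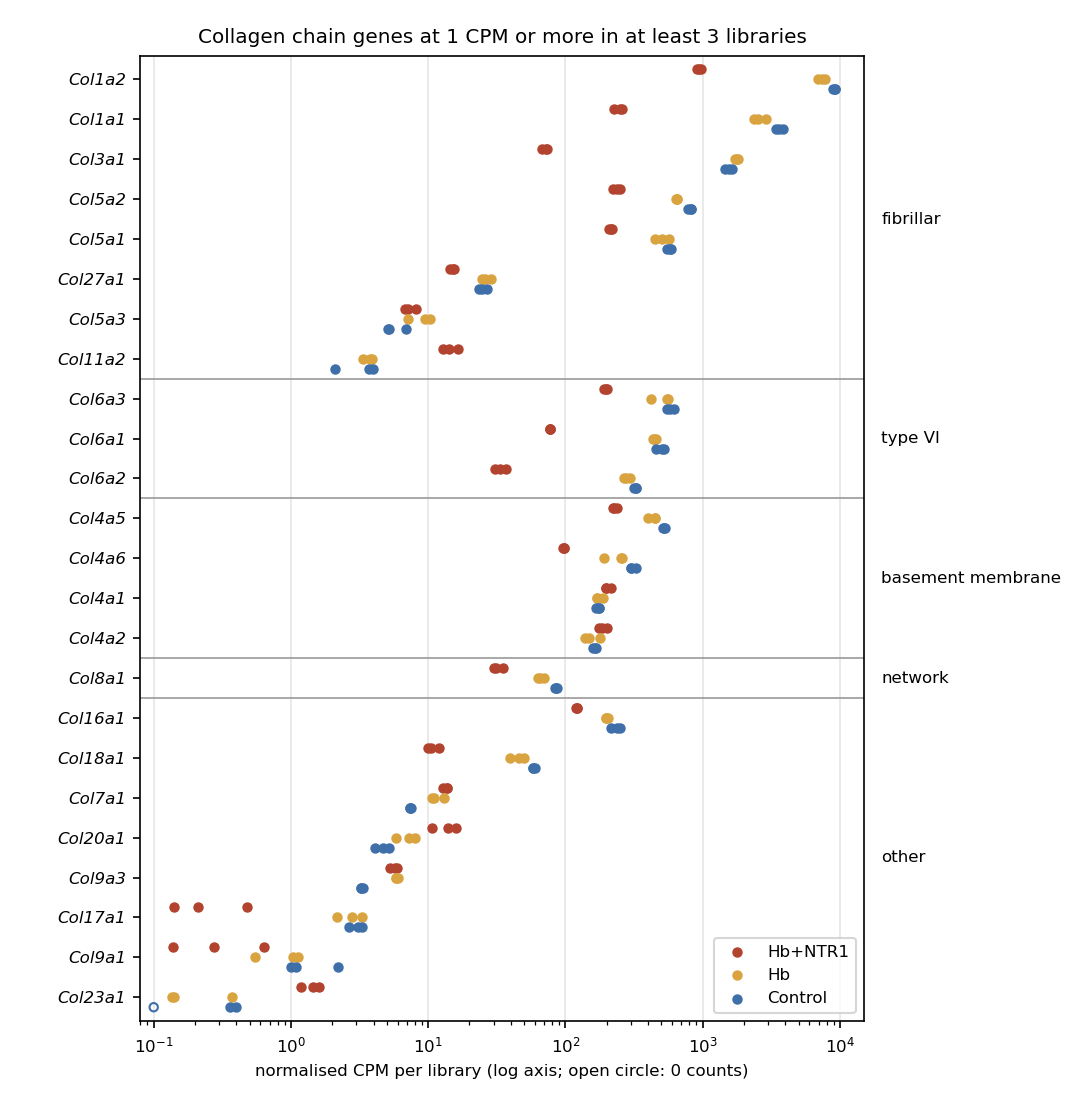
Normalised CPM of the 24 collagen chain genes at 1 CPM or more in at least 3 libraries, on a log axis, 1 point per library, with the classes separated by lines. Col3a1 lies at 67.5 to 73.0 in Hb+NTR1 and at 1461 to 1804 in the other groups, whereas the points of Col4a1 and Col4a2 lie close together in all 3 groups.

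Among the fibrillar genes, 1 of 8 was higher and 6 were lower in Hb+NTR1 than in Hb, and the class median log2 fold change was -1.35. Over all genes tested, 30.7% were higher and 31.6% lower. Col3a1, which encodes the single chain of type III collagen, had 72.6, 73.0 and 67.5 normalised CPM in Hb+NTR1, against 1783, 1726 and 1804 in Hb and 1553, 1461 and 1627 in Control. The groups did not overlap, and its level was 24.9-fold lower in Hb+NTR1 than in Hb (log2 fold change -4.64 ± 0.07 SE, adjusted p = 2.17e-23, edgeR) and 21.8-fold lower than in Control (-4.44 ± 0.07, adjusted p = 4.89e-23). No other tested collagen gene differed as much in these comparisons.

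The type I chains followed. Col1a1, the alpha-1 chain, had 252, 258 and 226 normalised CPM in Hb+NTR1, against 2882, 2366 and 2546 in Hb and 3629, 3401 and 3842 in Control. Col1a2, the alpha-2 chain, had 949, 970.4 and 914 in Hb+NTR1, against 7807, 6961 and 7376 in Hb and 9284, 8854 and 9156 in Control. In both genes the 3 groups lay apart, lowest in Hb+NTR1 and highest in Control. Col1a1 was 10.6-fold lower in Hb+NTR1 than in Hb (log2 fold change -3.41 ± 0.08, adjusted p = 3.59e-20, edgeR) and 14.8-fold lower than in Control (-3.89 ± 0.08, adjusted p = 3.87e-21). Col1a2 was 7.82-fold lower than in Hb (-2.97 ± 0.07, adjusted p = 2.79e-20) and 9.63-fold lower than in Control (-3.27 ± 0.07, adjusted p = 3.87e-21).

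Type V collagen, which is built into type I fibrils and limits their width, was lower by less. Col5a1 had 215, 219 and 209 normalised CPM in Hb+NTR1, against 569.9, 452 and 506 in Hb and 591, 549.6 and 579.5 in Control. Col5a2 had 237, 224 and 248 in Hb+NTR1, against 653, 641 and 647 in Hb and 824, 783 and 821 in Control. Both fell in Hb+NTR1, with log2 fold changes relative to Hb of -1.25 ± 0.07 for Col5a1 and -1.45 ± 0.06 for Col5a2 (adjusted p = 3.97e-13 and 1.62e-15, edgeR), and of -1.42 and -1.78 relative to Control. No Hb+NTR1 library of either gene reached the level of another group. Col27a1, a fibrillar chain of cartilage, was at 15.0 ± 0.561 in Hb+NTR1, 26.4 ± 2.09 in Hb and 25.1 ± 1.76 in Control (SD, n = 3 each), a difference of -0.82 ± 0.10 (log2) from Hb with adjusted p = 2.83e-07 (edgeR).

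The scarcer fibrillar genes behaved otherwise. Col11a2, a chain of type XI collagen, the cartilage partner of type II, had 12.7, 16.4 and 14.3 normalised CPM in Hb+NTR1, against 3.88, 3.76 and 3.34 in Hb and 2.11, 3.99 and 3.72 in Control. It rose 3.94-fold in Hb+NTR1 relative to Hb (log2 1.98 ± 0.19, adjusted p = 2.32e-09, edgeR) and 4.46-fold relative to Control (2.16 ± 0.19, adjusted p = 5.6e-10), while Col11a1 and Col2a1 were too scarce to test. Col5a3 had 8.16, 7.16 and 6.75 in Hb+NTR1, against 10.2, 7.11 and 9.42 in Hb and 5.12, 6.85 and 5.23 in Control. Its Hb+NTR1 libraries overlapped with those of both other groups, and neither difference passed the test (adjusted p = 0.157 against Hb and 0.0743 against Control, edgeR). Without Hb replicate 2 the difference from Hb passed (-0.42, adjusted p = 0.0322), and without Control replicate 2 that from Control did (0.51, adjusted p = 0.0281).

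**Figure D3:**
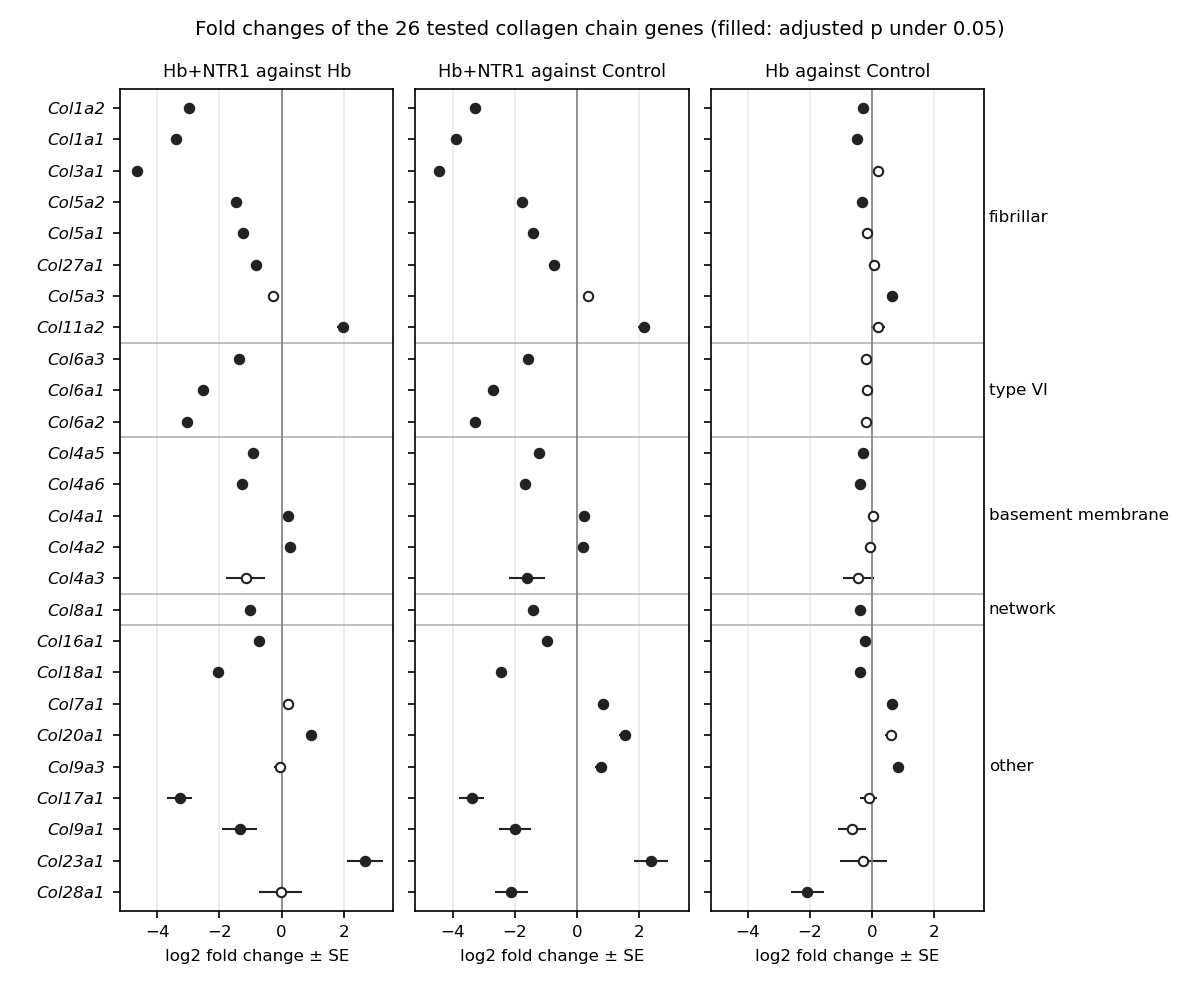
Log2 fold changes with their standard errors for the 26 tested genes in the 3 comparisons, filled where the adjusted p is under 0.05. Col3a1 lies furthest to the left at -4.64 and -4.44 in both comparisons of Hb+NTR1, and Col23a1 furthest to the right at 2.68 and 2.39.

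Since chains of 1 trimer are needed in fixed proportions, ratios between chains are given per kilobase of the transcript with the longest coding sequence. A type I molecule holds a pair of alpha-1 chains for each alpha-2 chain. The Col1a1 to Col1a2 ratio of levels per kilobase was 0.234 ± 0.00958 in Hb+NTR1, 0.317 ± 0.0141 in Hb and 0.359 ± 0.0170 in Control, and the groups did not overlap. With the length of all annotated exons instead, an option added after the data had been seen, it was 0.491, 0.665 and 0.754 in the same order of groups, since only the absolute ratio depends on the length. The Col3a1 to Col1a2 ratio was 0.0723 ± 0.00127 in Hb+NTR1, 0.231 ± 0.0101 in Hb and 0.163 ± 0.00648 in Control, so type III messages were lowest against type I in Hb+NTR1 and highest in Hb. In CPM per kilobase Col1a2 ranked first and Col1a1 next among the 44 genes in every group. Col3a1 ranked 3 in Hb and in Control and 12 in Hb+NTR1, where its level was 12.8 ± 0.553 CPM per kilobase against 318 ± 7.20 in Hb (SD, n = 3 each). The Col5a1 to Col5a2 ratio was 0.716 ± 0.0539 in Hb+NTR1, 0.620 ± 0.0659 in Hb and 0.558 ± 0.00577 in Control, and Hb+NTR1 and Hb overlapped.

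**Figure D4:**
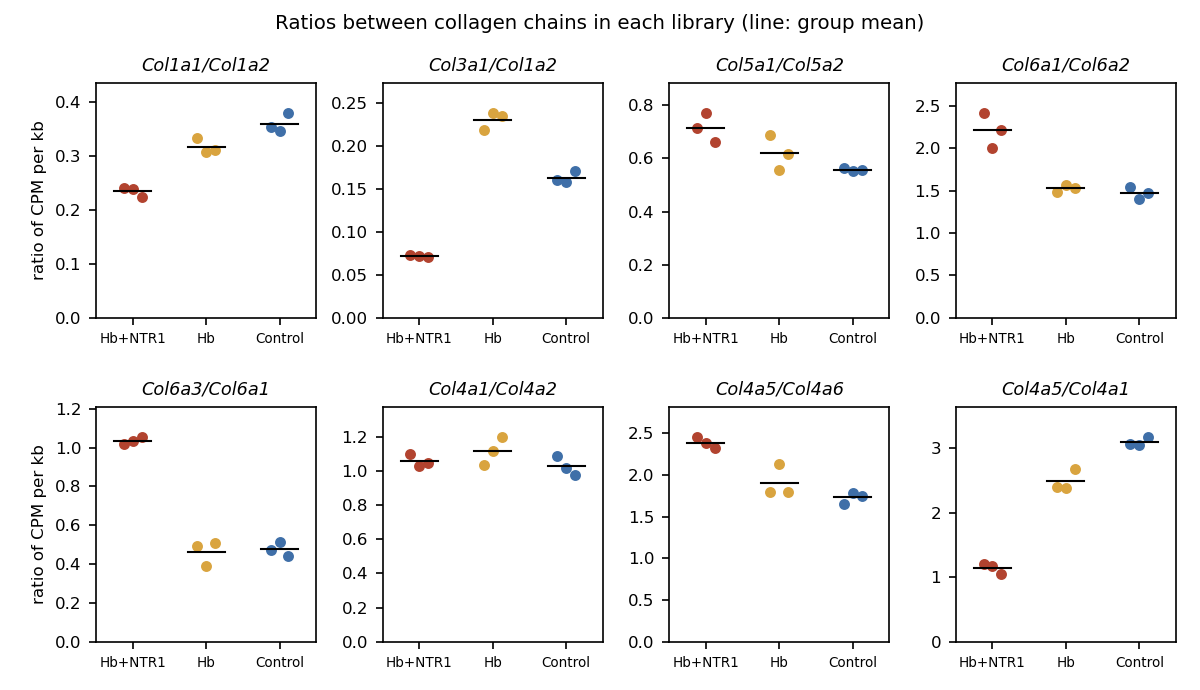
Ratios between collagen chains in each library, as normalised CPM per kilobase of transcript, with the group mean as a line. Col6a3 to Col6a1 lies at 1.02 to 1.05 in Hb+NTR1 against 0.392 to 0.511 in the other groups, and Col4a1 to Col4a2 lies between 0.978 and 1.20 in all of them.

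The type VI genes fell together in Hb+NTR1, 3 of 3 tested in each comparison with that group. Of all genes tested, 31.6% were lower relative to Hb and 32.2% relative to Control. Col6a1 and Col6a2, which lie on the same strand of chromosome 10 and encode the short chains, had 76.6, 77.1 and 77.3 and 30.6, 36.9 and 33.6 normalised CPM in Hb+NTR1. In Hb they had 459.9, 434 and 441 and 298, 267 and 277, and in Control 526, 458 and 503 and 329, 315 and 329.8. Neither gene overlapped between Hb+NTR1 and another group. Relative to Hb both fell, with log2 fold changes of -2.53 ± 0.07 for Col6a1 and -3.06 ± 0.08 for Col6a2 (adjusted p = 2.18e-19 and 3.94e-20, edgeR). Col6a3, the long chain that completes the type VI monomer, had 192, 196 and 200.4 normalised CPM in Hb+NTR1, against 558, 419.8 and 551 in Hb and 615, 577 and 549 in Control. It fell by 1.38 ± 0.08 relative to Hb (adjusted p = 1.21e-12, edgeR) and by 1.56 ± 0.08 relative to Control (adjusted p = 1.05e-13). The messages for the chains of the monomer thus stood in other proportions. The ratio of Col6a3 to Col6a1 per kilobase was 1.03 ± 0.0174 in Hb+NTR1, 0.464 ± 0.0622 in Hb and 0.476 ± 0.0339 in Control. That of Col6a1 to Col6a2 was 2.21 ± 0.203, 1.53 ± 0.0396 and 1.47 ± 0.0703 (SD, n = 3 each). With the length of all annotated exons the first ratio was 0.933, 0.419 and 0.430 and the second 4.37, 3.02 and 2.90.

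The type IV genes split by gene pair. They lie in head-to-head pairs whose start sites are 21 bases apart for Col4a1 and Col4a2 on chromosome 8, 72 for Col4a3 and Col4a4 on chromosome 1, and 1309 for Col4a5 and Col4a6 on chromosome X. Col4a1, a chain of the common basement membrane trimer, had 199, 197 and 215 normalised CPM in Hb+NTR1, against 189, 169 and 171 in Hb and 176, 174 and 166 in Control. Col4a2, its partner, had 176, 186 and 199 in Hb+NTR1, against 178, 148 and 139.6 in Hb and 158, 167 and 165 in Control. The Hb+NTR1 libraries were above those of the other groups except that Col4a2 in Hb replicate 1 exceeded 1 of them. Both genes rose in Hb+NTR1 by little, Col4a1 by 0.20 ± 0.06 and Col4a2 by 0.27 ± 0.08 (log2) relative to Hb (adjusted p = 0.00817 and 0.00333, edgeR), and by 0.24 ± 0.06 and 0.20 ± 0.08 relative to Control (adjusted p = 0.0021 and 0.0257). Without Hb+NTR1 replicate 3 the Col4a1 difference from Hb missed the threshold (adjusted p = 0.0581). The Col4a2 difference from Control missed it without Hb+NTR1 replicate 3 (adjusted p = 0.136), Control replicate 1 (0.104) or Control replicate 3 (0.0518).

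Col4a5 and Col4a6, the X-linked chains of a second trimer, went the other way. Col4a5 had 237, 227 and 222 normalised CPM in Hb+NTR1, against 448, 399 and 453 in Hb and 533, 526 and 519 in Control. Col4a6 had 98.3, 96.7 and 97.3 in Hb+NTR1, against 253, 191 and 257 in Hb and 327, 299 and 302 in Control. All 3 groups lay apart in both genes, with Hb+NTR1 lowest. Both fell relative to Hb, with log2 fold changes of -0.92 ± 0.06 for Col4a5 and -1.26 ± 0.08 for Col4a6 (adjusted p = 9.35e-12 and 7.83e-12, edgeR). The Col4a5 to Col4a1 ratio per kilobase was 1.14 ± 0.0832 in Hb+NTR1, 2.49 ± 0.165 in Hb and 3.10 ± 0.0609 in Control, while the Col4a1 to Col4a2 ratio was 1.06 ± 0.0360, 1.12 ± 0.0791 and 1.03 ± 0.0541 in these groups and overlapped among them. In CPM per kilobase Col4a5, Col4a1 and Col4a2 ranked 4, 5 and 6 among the collagen genes of Hb+NTR1, against 7, 12 and 13 in Hb and in Control. Col4a3, of the trimer found in kidney and lung, had 0.325 ± 0.264 normalised CPM in Hb+NTR1, 0.731 ± 0.410 in Hb and 0.991 ± 0.520 in Control. Its difference from Control passed the test (-1.60 ± 0.59, adjusted p = 0.0206, edgeR), but the groups overlapped and the adjusted p was 0.108, 0.0874 and 0.149 without Hb+NTR1 replicate 1, Hb+NTR1 replicate 2 or Control replicate 1. Relative to Hb it did not pass (adjusted p = 0.111), except without Hb+NTR1 replicate 3 (adjusted p = 0.0332).

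The promoters of the type IV pair that was slightly higher in Hb+NTR1 and of 2 fibrillar genes that were far lower are printed to set them side by side, from 250 bases before to 50 bases after the RefSeq start on GRCm38.p6, where they are tabled. Capitals mark the CCAAT box (CCAAT), the GC box (GGGCGG) and the TATA box (TATAAA) on either strand, a match on the opposite strand being shown as its reverse complement.

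Col4a1 promoter, chr8:11312777-11313076, minus strand: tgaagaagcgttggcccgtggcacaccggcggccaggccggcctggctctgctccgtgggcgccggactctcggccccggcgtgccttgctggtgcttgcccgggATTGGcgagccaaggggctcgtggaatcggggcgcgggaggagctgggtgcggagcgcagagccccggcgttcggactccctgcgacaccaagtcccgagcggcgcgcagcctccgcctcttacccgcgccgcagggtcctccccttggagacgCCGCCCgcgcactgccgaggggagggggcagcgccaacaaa
Col4a2 promoter, chr8:11312555-11312854, plus strand: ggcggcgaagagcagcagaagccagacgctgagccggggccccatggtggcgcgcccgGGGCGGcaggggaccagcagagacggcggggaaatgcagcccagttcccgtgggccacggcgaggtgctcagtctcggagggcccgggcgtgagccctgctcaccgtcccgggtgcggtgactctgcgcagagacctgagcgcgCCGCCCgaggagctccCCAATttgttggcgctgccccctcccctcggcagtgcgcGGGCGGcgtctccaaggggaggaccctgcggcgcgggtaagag
Col1a2 promoter, chr6:4505368-4505667, plus strand: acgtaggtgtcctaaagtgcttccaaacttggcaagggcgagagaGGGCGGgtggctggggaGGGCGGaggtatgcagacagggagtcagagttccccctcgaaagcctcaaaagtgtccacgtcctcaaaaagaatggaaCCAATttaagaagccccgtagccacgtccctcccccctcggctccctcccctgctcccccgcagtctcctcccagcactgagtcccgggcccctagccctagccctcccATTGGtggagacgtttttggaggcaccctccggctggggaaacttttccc
Col3a1 promoter, chr1:45311288-45311587, plus strand: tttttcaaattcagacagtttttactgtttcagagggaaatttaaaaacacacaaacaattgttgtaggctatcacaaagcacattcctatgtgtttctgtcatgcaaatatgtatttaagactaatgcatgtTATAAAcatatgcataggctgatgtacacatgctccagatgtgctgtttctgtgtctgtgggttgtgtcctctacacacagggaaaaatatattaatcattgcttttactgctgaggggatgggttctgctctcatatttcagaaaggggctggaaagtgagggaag

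The Col4a1 and Col4a2 windows overlap because the starts are so close, so 1 GC box near both starts appears in each. The Col3a1 window held the TATA box letters, from 117 bases before the start, and neither other motif, and the Col1a2 window held 2 matches to the CCAAT box and 2 to the GC box. For 35 of the 44 genes 38 windows were tabled, and a gene was counted if any of its windows held the motif. Of the 35 genes, 13 (37.1%) held the CCAAT box, 22 (62.9%) the GC box and 5 (14.3%) the TATA box. Counted per window and not per gene, 37.4%, 35.7% and 13.6% of all 32851 windows held them. These are matches of letters only.

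Of the network class, Col8a1, a short chain found in vessel walls and in the cornea, had 31.3, 30.3 and 35.3 normalised CPM in Hb+NTR1, against 65.8, 62.8 and 69.4 in Hb and 84.7, 87.0 and 86.1 in Control. The groups did not overlap. It fell by 1.03 ± 0.08 (log2) relative to Hb (adjusted p = 5.78e-11, edgeR) and by 1.41 ± 0.08 relative to Control (adjusted p = 1.33e-13).

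Of 9 tested genes of the other class, 2 were higher and 4 lower in Hb+NTR1 than in Hb, a share called that is near the 62.3% of all genes. Relative to Control 4 were higher and 5 lower, where 63.6% of all genes were called. Col18a1, a multiplexin whose end is released as endostatin, had 11.9, 9.90 and 10.5 normalised CPM in Hb+NTR1, against 49.9, 39.6 and 45.6 in Hb and 58.0, 58.2 and 60.3 in Control. It fell by 2.06 ± 0.10 (log2) relative to Hb (adjusted p = 3.52e-14, edgeR). Col16a1, a FACIT, was the most abundant of the class with 122, 120.4 and 122 in Hb+NTR1, against 205, 198 and 197 in Hb and 248, 215 and 238 in Control, and fell by 0.72 ± 0.06 relative to Hb (adjusted p = 8.1e-10). In both genes the Hb+NTR1 libraries lay below all others.

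At low levels, Col17a1, a membrane-spanning chain of hemidesmosomes, had 0.480, 0.140 and 0.209 normalised CPM in Hb+NTR1, against 3.32, 2.80 and 2.15 in Hb and 2.65, 3.06 and 3.29 in Control, a log2 fold change of -3.28 ± 0.40 from Hb (adjusted p = 1.95e-07, edgeR). Col23a1, another membrane-spanning chain, had 1.44, 1.19 and 1.60 in Hb+NTR1, against 0.141, 0.137 and 0.371 in Hb and 0.361, 0.399 and 0 in Control. It was higher in every Hb+NTR1 library, by 2.68 ± 0.58 (log2) relative to Hb (adjusted p = 0.000321, edgeR) and 2.39 ± 0.55 relative to Control (adjusted p = 0.000541). Col9a1, a chain of the cartilage FACIT type IX, averaged 0.349 ± 0.255 in Hb+NTR1, 0.905 ± 0.314 in Hb and 1.43 ± 0.682 in Control (SD, n = 3 each). It passed the test against Hb (adjusted p = 0.0388, edgeR) and against Control (adjusted p = 0.00175), but the difference from Hb was lost without Hb+NTR1 replicate 1 (adjusted p = 0.117), Hb+NTR1 replicate 3 (0.173), Hb replicate 1 (0.124) or Hb replicate 3 (0.0996). Col9a1, Col17a1 and Col23a1 entered the count of 24 only through the groups in which they were high, so their differences are not independent of that limit.

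Col20a1, Col7a1 and Col9a3 were higher in Hb+NTR1 than in Control. Col20a1, a FACIT, had 16.0, 13.9 and 10.7 normalised CPM in Hb+NTR1, against 8.05, 7.24 and 5.86 in Hb and 5.18, 4.65 and 4.08 in Control. The 3 groups did not overlap, and it rose by 0.94 ± 0.16 (log2) in Hb+NTR1 relative to Hb (adjusted p = 2.63e-05, edgeR) and by 1.54 ± 0.17 relative to Control (adjusted p = 3.61e-08). Col7a1, the chain of the fibrils that anchor skin epithelium, had 13.6, 12.8 and 13.6 in Hb+NTR1, against 10.9, 13.1 and 10.6 in Hb and 7.41, 7.51 and 7.38 in Control. Col9a3 had 5.89, 5.69 and 5.29 in Hb+NTR1, against 5.79, 6.01 and 5.86 in Hb and 3.37, 3.26 and 3.22 in Control. Hb+NTR1 and Hb overlapped in Col7a1 and Col9a3 and their differences did not pass the test (0.21 ± 0.13 and -0.07 ± 0.17, adjusted p = 0.157 and 0.748, edgeR), while relative to Control both were higher in Hb+NTR1 (0.85 ± 0.13 and 0.77 ± 0.18, adjusted p = 5.38e-06 and 0.000576). Of the exon bases of Col9a3, 6.07% overlap Tcfl5 on the opposite strand, and without a stated strand setting reads of these genes there cannot be told apart.

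Oxyhemoglobin alone went with small changes. In Hb against Control, Col9a3 rose by 0.84 ± 0.18, Col7a1 by 0.64 ± 0.13 and Col5a3 by 0.64 ± 0.17 on the log2 scale (adjusted p = 0.00601, 0.00544 and 0.0353, edgeR). Col20a1 differed by 0.60 ± 0.18 and missed the threshold (adjusted p = 0.0751), but passed without Hb replicate 3 (0.0444), with the replicate number as a block (0.0219) and with no filter on low counts (0.0349). Those that fell had log2 fold changes of -0.48 ± 0.07 for Col1a1, -0.40 ± 0.08 for Col4a6, -0.39 ± 0.09 for Col18a1, -0.38 ± 0.07 for Col8a1, -0.32 ± 0.06 for Col5a2, -0.30 ± 0.06 for Col1a2, -0.28 ± 0.06 for Col4a5 and -0.23 ± 0.06 for Col16a1 (adjusted p = 0.000262 for Col1a1 to 0.0408 for Col16a1). Col28a1, a chain of peripheral nerve, fell by 2.09 ± 0.54 (adjusted p = 0.0265) at levels of 0.353, 0.273 and 0.148 normalised CPM in Hb against 1.45, 1.13 and 0.788 in Control. It was the single gene with a called difference of more than 2-fold. The counts of Col28a1 were 24, 17 and 11 in Control, 5, 4 and 2 in Hb and 6, 4 and 1 in Hb+NTR1. It thus passed the filter for the test through Control, where it was high, and the difference is not independent of that filter.

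Several of these calls were lost when 1 library was left out, in some genes whichever of several libraries it was. The Col5a3 difference missed the threshold without Hb replicate 1 or 3 or Control replicate 1 or 3 (adjusted p = 0.17, 0.0959, 0.16 and 0.16, edgeR), and that of Col28a1 without the same Hb libraries or Control replicate 1 or 2 (adjusted p = 0.0562, 0.112, 0.137 and 0.0834). Col16a1 missed it without any library other than Hb replicate 2 or Control replicate 2 (adjusted p = 0.0503 to 0.234), and with only the 6 libraries compared (0.102) or with library totals alone (0.0983). Control replicate 3 was needed for Col1a2 (adjusted p = 0.0541 without it) and Col18a1 (0.0676), and Control replicates 1 and 2 each for Col4a5 (0.0573 and 0.0547). Col1a1, Col5a2, Col4a6, Col8a1, Col7a1 and Col9a3 stayed past the threshold under every alternative run.

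Col3a1 was the one abundant fibrillar gene with a positive value in Hb against Control. Its log2 fold change was 0.19 ± 0.06, and although the groups did not overlap it missed the threshold (adjusted p = 0.0916, edgeR). It passed without Hb replicate 2 (0.21, adjusted p = 0.0121), with DESeq2 (adjusted p = 0.0277) and with library totals alone (adjusted p = 0.025). Of the 3 type VI genes, 0 were called in Hb against Control by edgeR or DESeq2, where edgeR called 3.65% of all genes. All 3 were lower at an unadjusted p under 0.05, a limit that was not counted over all genes. Their log2 differences were -0.16 ± 0.06 for Col6a1, -0.21 ± 0.07 for Col6a2 and -0.19 ± 0.08 for Col6a3, and that of Col6a2 passed without Hb replicate 1 (adjusted p = 0.0422). Hb replicate 1 also decided Col5a1, at -0.17 ± 0.07 (adjusted p = 0.217) with it and -0.26 (adjusted p = 0.0299) without it. The remaining values were small or imprecise: 0.04 ± 0.06 for Col4a1, -0.07 ± 0.08 for Col4a2, 0.07 ± 0.10 for Col27a1, 0.18 ± 0.22 for Col11a2, -0.11 ± 0.27 for Col17a1, -0.28 ± 0.76 for Col23a1, -0.65 ± 0.44 for Col9a1 and -0.45 ± 0.51 for Col4a3.

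Genes that modify, fold, process and crosslink collagen chains were examined as a list of 36, of which 30 were tested. In Hb+NTR1 5 were higher and 19 lower than in Hb, where 30.7% of all genes were higher and 31.6% lower, with a median log2 fold change of -0.35 against -0.01 over all genes. The counts relative to Control were the same, against 31.4% higher and 32.2% lower over all genes, with a median of -0.40. Lox, the oxidase that starts crosslinks between chains, had 88.1, 80.7 and 104 normalised CPM in Hb+NTR1, against 2136, 2084 and 2376 in Hb and 3001, 2945 and 3074 in Control. It was 24.2-fold lower in Hb+NTR1 than in Hb (log2 fold change -4.59 ± 0.09, adjusted p = 1e-21, edgeR), close in size to Col3a1, and the 3 groups did not overlap. Creb3l1, a transcription factor known to drive type I collagen expression in bone, averaged 0.255 ± 0.148 in Hb+NTR1, 2.93 ± 0.906 in Hb and 3.01 ± 0.369 in Control. Fkbp10, a prolyl isomerase, averaged 25.8 ± 0.632, 127.8 ± 9.13 and 151 ± 6.77 in Hb+NTR1, Hb and Control, and Pcolce, which speeds removal of the C-terminal propeptide, 112 ± 6.30, 451 ± 33.9 and 472 ± 9.96 (SD, n = 3 each). Relative to Hb these 3 fell, with log2 fold changes of -3.49 ± 0.42, -2.31 ± 0.08 and -2.01 ± 0.07 (adjusted p = 1.3e-07, 1.09e-17 and 2.49e-17, edgeR). Creb3l1 passed the filter for the test through Hb and Control, the groups in which it was high. Serpinh1, the collagen chaperone of the endoplasmic reticulum, averaged 578 ± 43.6 in Hb+NTR1, 1195 ± 63.5 in Hb and 1270.5 ± 2.46 in Control, a fall of 1.05 ± 0.07 relative to Hb (adjusted p = 2.22e-12).

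The 5 genes that rose were Plod2, Plod1, P3h1, Tmem38b and Mia3, which loads procollagen for export. Plod2, which hydroxylates lysines of the telopeptides, had 115, 103 and 112 normalised CPM in Hb+NTR1, against 52.0, 55.2 and 57.1 in Hb and 46.8, 45.3 and 47.3 in Control. Plod1, the lysyl hydroxylase of the helix, averaged 198 ± 9.42, 116 ± 9.47 and 124 ± 7.30 in Hb+NTR1, Hb and Control (SD, n = 3 each). Plod2 rose by 1.01 ± 0.07, Plod1 by 0.76 ± 0.07, Tmem38b, a cation channel of the endoplasmic reticulum, by 0.59 ± 0.12 and P3h1, a prolyl 3-hydroxylase, by 0.40 ± 0.06 relative to Hb (log2, adjusted p = 1.6e-11 for Plod2 to 0.000181 for Tmem38b, edgeR). In Hb against Control, 3 of the 30 were higher at an unadjusted p under 0.05, a limit that was not counted over all genes. By DESeq2 0 were higher. The edgeR test called 6 of the 30 lower and 0 higher, where 1.77% of all genes were lower and 1.88% higher. The 4 with the largest falls were P4ha3, a prolyl 4-hydroxylase subunit, at -0.59 ± 0.14, Loxl3, a lysyl oxidase, at -0.53 ± 0.09, Lox at -0.45 ± 0.08 and Ppib, a cyclophilin, at -0.36 ± 0.10 (log2, adjusted p = 0.0165, 0.00108, 0.000591 and 0.0381). P4ha3 missed the threshold without Hb replicate 3 (0.0816) or Control replicate 1 (0.102), and Ppib without any of the Control libraries, Hb replicate 3 or Hb+NTR1 replicate 3 (0.0515 to 0.202) and with library totals alone (0.066). The lower count was 3 without Hb replicate 3 and 2 without Control replicate 1.

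**Figure D5:**
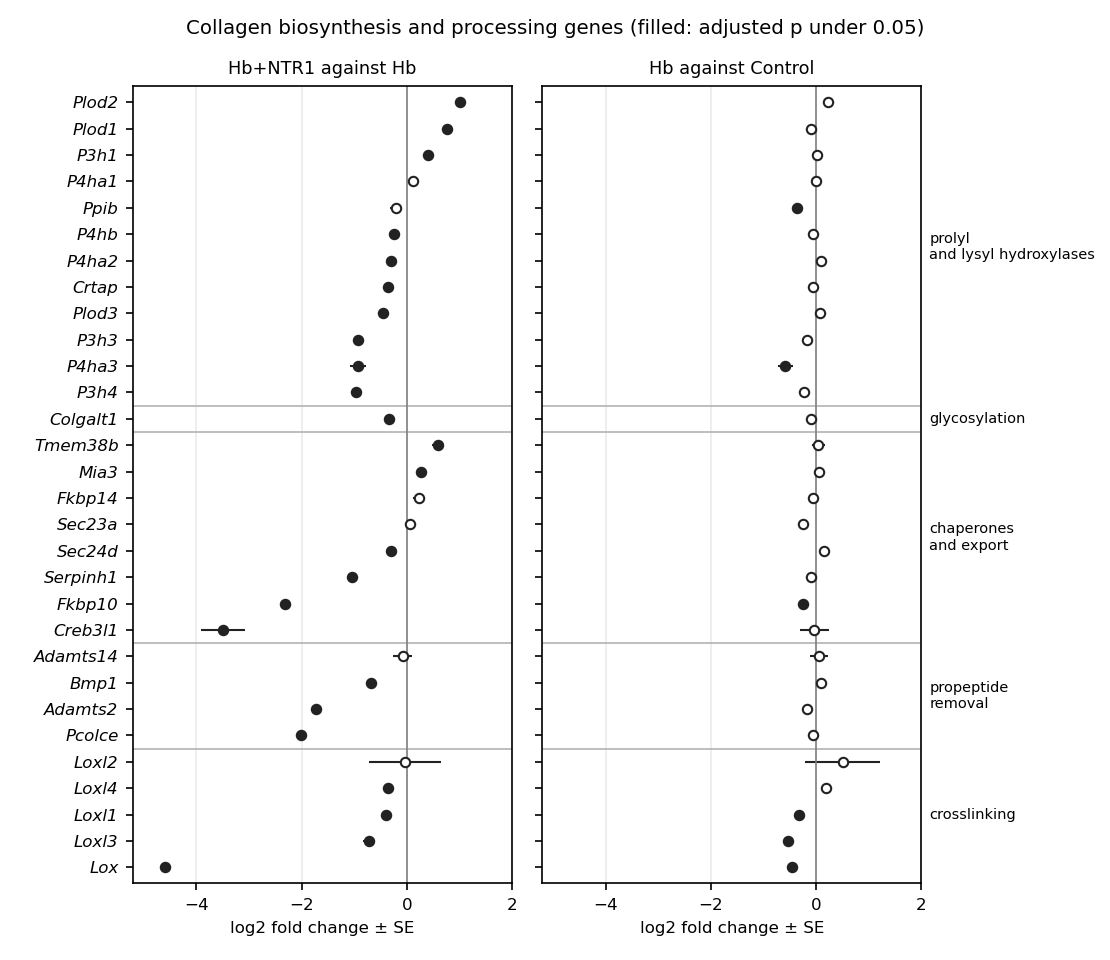
Log2 fold changes with standard errors of the 30 tested genes of collagen modification, folding, export, processing and crosslinking, in Hb+NTR1 against Hb and in Hb against Control, filled where the adjusted p is under 0.05. Lox at -4.59 and Creb3l1 at -3.49 lie furthest to the left, and Plod2 at 1.01 furthest to the right.

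Of 10 collagen receptor genes, 6 were tested. In Hb+NTR1 1 was higher and 3 lower than in Hb, where 62.3% of all genes were called, 30.7% higher and 31.6% lower. Relative to Control 2 were higher and 3 lower, where 63.6% of all genes were called, 31.4% higher and 32.2% lower. Calls of receptor genes were thus about as common as calls of all genes. Ddr2, a receptor kinase for fibrillar collagen, averaged 180.2 ± 1.84 normalised CPM in Hb+NTR1, 367 ± 35.6 in Hb and 369 ± 10.4 in Control (SD, n = 3 each), and Mrc2, which takes up collagen fragments, 76.1 ± 3.22, 115 ± 9.39 and 109 ± 4.71. Itga11, the integrin alpha chain that the series title names, had 0.411, 0.421 and 0.0696 in Hb+NTR1, against 1.27, 1.44 and 1.41 in Hb and 1.93, 1.53 and 1.43 in Control. These 3 fell in Hb+NTR1 relative to Hb, with log2 fold changes of -1.03 ± 0.07, -0.59 ± 0.07 and -2.16 ± 0.47 (adjusted p = 4.52e-12, 1.36e-07 and 0.000389, edgeR). Itga11 passed the filter for the test through Hb and Control, the groups in which it was high. Itgb1, the beta chain shared by the collagen-binding integrins, averaged 1313 ± 69.4 in Hb+NTR1, 818 ± 44.4 in Hb and 896 ± 32.2 in Control, a rise of 0.68 ± 0.06 relative to Hb (adjusted p = 2.78e-09). Itga10, an alpha chain of cartilage, was called higher relative to Control alone (0.53 ± 0.22, adjusted p = 0.0402), which did not hold with DESeq2 (0.0646), with no filter on low counts (0.11) or without any 1 of the Hb+NTR1 replicates 1 and 2 or the Control libraries (0.057 to 0.153). Relative to Hb it missed the threshold (adjusted p = 0.0799) but passed without Hb+NTR1 replicate 3 (adjusted p = 0.0474), so that 2 receptor genes were higher there in place of 1. In Hb against Control, where edgeR called 3.65% of all genes, 0 of the 6 were called by edgeR or DESeq2, and 0 had an unadjusted p under 0.05.

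The authors' deposited table of Hb+NTR1 against Control lists 10 of the collagen genes, 8 as lower and 2 as higher. In the authors' deposited table the lower ones are Col1a1, Col1a2, Col3a1, Col6a1, Col6a2, Col9a1, Col17a1 and Col18a1, and the higher ones Col11a2 and Col23a1. Its log2 values differed from those given here by at most 0.0539. The authors' table holds only 691 rows, and of these 10 log2 values the smallest in size is -2.04, for Col9a1. Its 10 genes therefore cannot be set directly against the 7 higher and 18 lower genes called here.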

How the data were processed

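Messenger RNA of 9 libraries was sequenced after poly(A) selection. The authors deposited raw counts per gene symbol, made with HISAT2 2.1.0 and HTSeq 0.10.0 on GRCm38 per the submitters' processing notes. The annotation release and strand setting were not given in the sources used here. Their comparison table of Hb+NTR1 against Control holds, per the file headers, the authors' log2 fold changes with p-values, raw and adjusted, from a test that it does not name. Count columns beginning in N were taken as Hb+NTR1, because only the samples of that group and of Control name that table.

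Of 54232 rows, 98 exact repeats were removed. The tests used edgeR 4.0.16 (R 4.3.3): filterByExpr with a minimum count of 10 kept 13810 genes, TMM scaled the libraries, and all 9 entered 1 robust quasi-likelihood fit with group as the term, with two-sided tests and Benjamini-Hochberg adjustment within each comparison (threshold 0.05). The SE was taken from the log2 fold change and the root of the F statistic. The fit was tested on simulated data in which few genes differed. In the comparisons of Hb+NTR1 most genes were called, and that simulation does not cover this case. Measured means at least 1 CPM in at least 3 libraries. Alternatives were DESeq2 1.42.0, DESeq2 size factors, library totals, scaling without collagen genes, other filters, the 6 libraries of a comparison, a replicate block, and each library left out.

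The genes and lists were chosen with earlier results of these data known. All 24 measured members were named, and of the biosynthesis list up to 4 called genes with the largest change per comparison and direction, with Serpinh1 always, and every called receptor. Positions came from GENCODE M21 and promoters from RefSeq.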

Additional observations from a re-analysis of the deposited data

How the results depend on the processing

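The numbers of collagen chain genes called stayed within 1.5 times the reported ones under every alternative run. In Hb+NTR1 against Hb 4 to 5 were higher and 15 to 17 lower with each library left out, against Control 6 to 8 and 17 to 18, and in Hb against Control 2 to 4 and 6 to 9. Of the log2 fold changes of single collagen genes, 0 reversed with a call on either side. The number of measured collagen genes was 28 at 0.5 CPM in at least 3 libraries, 21 at 1 CPM in all libraries and 26 with filterByExpr. In Hb against Control, 1 biosynthesis gene was higher with library totals alone, and with 1 library left out 0 to 1 were higher and 2 to 8 lower. Of the receptor genes, 2 were higher in Hb+NTR1 than in Hb without Hb+NTR1 replicate 3, against 1. Relative to Control 1 was higher, against 2, with DESeq2, with no filter on low counts and without Hb+NTR1 replicate 1 or 2 or any 1 Control library. Of all genes, 127 to 533 were higher and 157 to 592 lower in Hb against Control with 1 library left out, most without Hb replicate 2, against 259 and 245. Without the 2 type I chains the collagen share was 0.182% in Hb+NTR1, 0.556% in Hb and 0.579% in Control. With 1 library left out the full share stayed at 0.301 to 0.306% in Hb+NTR1, 1.50 to 1.61% in Hb and 1.80 to 1.86% in Control. The cause of these shifts was not tested. Same-numbered libraries of different groups correlated in their deviations from the group means by -0.0451 to 0.145, and differently numbered ones by -0.194 to 0.166. With so few libraries per group these values cannot decide whether the numbers pair the samples. With the replicate number as a block, 4 collagen genes were higher and 9 lower in Hb against Control, and the counts in the other comparisons were as reported; 316 genes were higher and 329 lower in Hb against Control. Genes under about 1 CPM rest on few counts, and their folds are imprecise.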
